A study of Mus musculus with 13 samples.

Results

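Lpl, Spp1, Cst7, Itgax, Axl, Mertk, Cd68, Tspo, Trem2 and Tyrobp are genes linked to reactive and phagocytic microglia. These 10 of the 16961 genes in the deposited table were taken by name, whatever their values, and are described across the 8 cell classes that the authors wrote into each cell's name, and cell by cell within the microglial class MG. The descriptions cover the share of cells in which each gene was seen, and whether the genes occur together in a subset of microglia.

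Microglia are the resident macrophages of the brain. They take up dying cells, synaptic material and lipid-rich debris, and in ageing, demyelination and amyloid disease some of them shift into a state described as damage-associated, in which homeostatic genes are lowered and genes of lipid handling and lysosomes are raised. TREM2 is a surface receptor for lipids and lipoproteins that signals through the adaptor TYROBP, also called DAP12, and through the kinase SYK. AXL and MERTK are TAM receptor tyrosine kinases that bind phosphatidylserine on dying cells through bridging ligands. The ligands of the TAM family are GAS6 and protein S. CD68 is a heavily glycosylated protein of late endosomes and lysosomes, and TSPO is an outer mitochondrial membrane protein whose ligands serve as PET tracers of glial activation. Lipoprotein lipase (Lpl), osteopontin (Spp1), cystatin F (Cst7), which inhibits cathepsins, and the integrin alpha X chain CD11c (Itgax) are genes of the later, TREM2-dependent stage of the damage-associated state.

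The cells came from the medial amygdala of naive C57BL/6J mice, taken up as single cells with Act-seq, a procedure in which transcription is blocked while tissue is dissociated. Drop-seq then tagged the 3′ end of each captured mRNA with a unique molecular identifier (UMI). The series held 6 male and 7 female libraries. The age was 9 weeks except for 3 libraries at 8 weeks, male replicates 3 and 5 and female replicate 3. All mice lived under a reverse cycle of 12 h light and 12 h dark, spent at least 1 day in single housing before dissociation, and were otherwise untreated. The labels name no separate animals behind the libraries, so p-values measure only the spread between libraries, which may be technical. Of 43388 deposited cells, 24527 had at least 500 detected genes and were not called doublets. The authors' class MG held 3727 of these cells, 166 to 425 per library, with a median of 1788 UMIs per cell and 322593 to 808072 MG UMIs per library. The other classes are AS (6445 cells, astrocytes), OL (3887, oligodendrocytes), OPC (4163, oligodendrocyte precursors), OPC-OL (463, newly formed oligodendrocytes), EN (1463, endothelial cells), MU (764, mural cells) and N (3615, neurons). MG cells carried the defining microglial genes C1qb, at 7559 ± 451 CPM (per-million share of the class's UMIs, SD, n = 13 libraries), and Csf1r, at 4653 ± 184 CPM. Across libraries, 19 of 24508 distinct barcodes of kept cells occurred more than once, 3 of them within MG.

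The promoters of Trem2 and Cd68, whose UMIs lay almost wholly in MG, of Cst7 and Itgax, which met in the same cells more often than library and depth gave, and of Spp1, which lay mostly in MU, are shown because these 5 genes give the contrasts described here. Each window is the 250 bases before the RefSeq transcription start in GRCm38.p6, written 5′ to 3′ on the gene's own strand. Capitals mark matches, on either strand, to GAGGAA, which reads TTCCTC on the opposite strand and is the core of sites of the microglial factor PU.1, and to TGAGTCA, which reads TGACTCA on the opposite strand and is the AP-1 site. The windows are chr17:48346151-48346400 (plus strand) for Trem2, chr11:69666171-69666420 (minus strand) for Cd68, chr2:150570165-150570414 (plus strand) for Cst7, chr7:128129300-128129549 (plus strand) for Itgax and chr5:104434861-104435110 (plus strand) for the first of 2 Spp1 starts.
Trem2: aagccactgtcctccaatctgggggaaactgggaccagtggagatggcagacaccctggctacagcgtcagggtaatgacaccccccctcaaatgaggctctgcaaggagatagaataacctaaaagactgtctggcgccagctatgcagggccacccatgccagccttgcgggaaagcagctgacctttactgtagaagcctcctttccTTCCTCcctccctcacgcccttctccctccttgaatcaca
Cd68: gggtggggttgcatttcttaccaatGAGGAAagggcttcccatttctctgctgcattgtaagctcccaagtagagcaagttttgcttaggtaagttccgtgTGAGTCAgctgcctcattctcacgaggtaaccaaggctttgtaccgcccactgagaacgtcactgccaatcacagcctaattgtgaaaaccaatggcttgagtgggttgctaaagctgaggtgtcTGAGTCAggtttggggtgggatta
Cst7: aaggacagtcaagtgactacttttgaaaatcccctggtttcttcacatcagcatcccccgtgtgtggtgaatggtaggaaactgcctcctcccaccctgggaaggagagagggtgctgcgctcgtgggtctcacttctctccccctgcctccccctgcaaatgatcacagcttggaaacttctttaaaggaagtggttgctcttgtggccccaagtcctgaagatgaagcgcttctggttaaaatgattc
Itgax: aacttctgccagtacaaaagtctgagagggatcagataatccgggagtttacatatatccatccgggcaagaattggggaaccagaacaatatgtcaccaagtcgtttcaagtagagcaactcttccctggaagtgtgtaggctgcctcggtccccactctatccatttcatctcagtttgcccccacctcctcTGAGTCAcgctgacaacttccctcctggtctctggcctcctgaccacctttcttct
Spp1: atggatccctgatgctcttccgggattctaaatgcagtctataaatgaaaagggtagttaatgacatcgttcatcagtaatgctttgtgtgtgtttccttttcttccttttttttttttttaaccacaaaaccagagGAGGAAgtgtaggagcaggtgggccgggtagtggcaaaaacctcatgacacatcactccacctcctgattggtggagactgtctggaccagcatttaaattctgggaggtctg

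Trem2 held the PU.1 core 35 bases before its start, on the other strand. Cd68 held it 220 bases before its start, with AP-1 sites at 143 and 18 bases. Itgax held an AP-1 site 50 bases before its start, and Spp1 a PU.1 core at 108 bases. Axl, whose window is not printed, held a PU.1 core 125 bases before its start. No match to either motif, or to CACGTG, the E-box within lysosomal CLEAR elements, was present in the windows of Cst7 and Mertk or in the second window of Spp1. Among 32851 RefSeq promoter windows of this length, 23.3% held GAGGAA, 4.46% TGAGTCA and 6.02% CACGTG on either strand, and no 2 matches overlapped in the windows shown. A match describes letters only and shows no binding, and RefSeq windows were matched for 7 of the 10 genes. In the GENCODE M21 annotation of GRCm38 all 10 are protein-coding: Trem2 at chr17:48346401-48354147, Tyrobp at chr7:30413760-30417585, Axl at chr7:25757273-25788705, Mertk at chr2:128698956-128802894, Cd68 at chr11:69664213-69666153, Tspo at chr15:83563592-83574203, Lpl at chr8:68880491-68907448, Spp1 at chr5:104435118-104441050, Cst7 at chr2:150570415-150578944 and Itgax at chr7:128129547-128150657.

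The first comparison asked in which classes the genes were found. Levels are CPM, the per-million share of a class's UMIs in a library. A UMI marks 1 captured 3′ end, so no length scaling was applied. The authors' classes come from clustering the same counts, so differences between classes are described without a test. Trem2 and Tyrobp, the receptor and its adaptor, and the lysosomal gene Cd68 were microglial in all 13 libraries, Mertk was shared with astrocytes and vessels, and Axl, Tspo and Spp1 had their highest levels in vascular classes.

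**Figure D1:**
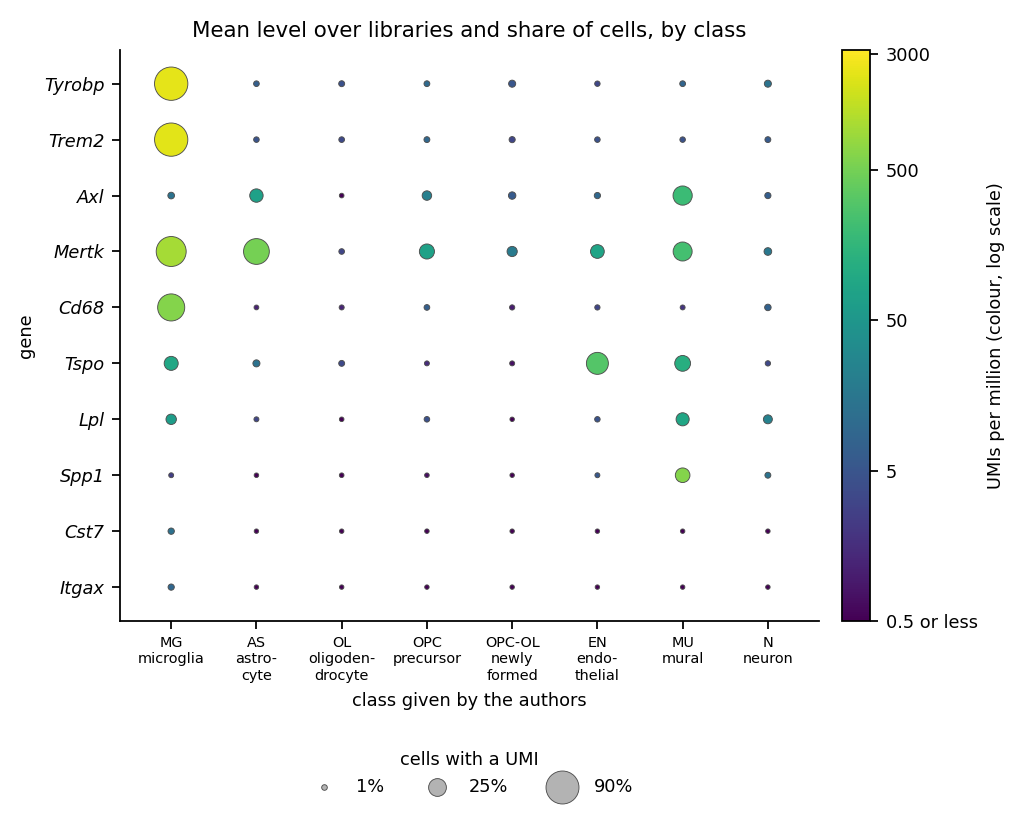
Mean level (colour, per-million UMIs, log scale) and share of cells with at least 1 UMI (dot area) of the 10 genes in the 8 classes given by the authors, over 13 libraries. Tyrobp, Trem2 and Cd68 stand out in MG alone, Mertk in MG and AS, Tspo in EN, and Axl and Spp1 in MU.

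Tyrobp stood at 1965 CPM in the lowest, 2236 in the median and 2477 in the highest MG library (2210 ± 155, SD, n = 13). A Tyrobp UMI was seen in 92.0% of MG cells (exact binomial interval 91.1% to 92.9%), against 1.34% of OL cells, which were deeper (median 3182 UMIs). MG held 97.2% of all Tyrobp UMIs, and N came next at 13.95 ± 5.49 CPM. Trem2 ran from 1914 over 2134 to 2579 CPM in MG (2160 ± 188), was seen in 91.7% of MG cells and had 97.9% of its UMIs there. These intervals, and those below, cover counting error only. Cells thinned to 1000 UMIs, so that depth is equal, had a Tyrobp UMI in 85.8% and a Trem2 UMI in 83.4% of the 3155 MG cells deep enough. The 13 MG libraries therefore lay within a narrow band for both genes, far above every library of the other classes.

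Cd68, the lysosomal glycoprotein, ranged from 527 over 623 to 762 CPM in MG (624 ± 57.4, n = 13), and 60.2% of MG cells had a UMI (43.5% after thinning). MG held 95.3% of its UMIs, and N came next at 7.67 ± 3.75 CPM. To set these traces beside those of other microglial genes, each gene's level in a class was divided by its level in MG and compared with 11 microglia-restricted genes such as C1qa, P2ry12 and Tmem119. In N those 11 genes reached 0.208% to 0.418% of their MG level, while Trem2 reached 0.279%, Tyrobp 0.591% and Cd68 1.23%. In AS the range was 0.171% to 0.406%, and Trem2 (0.234%), Tyrobp (0.271%) and Cd68 (0.192%) all lay within it. Cd68 was above the range in OPC (1.21%, against 0.379% to 0.798%) and EN (0.553%, against 0.105% to 0.412%). In OL, where the range was 0.103% to 0.159%, Trem2 (0.165%), Tyrobp (0.212%) and Cd68 (0.214%) all lay above it. Set against the highest of the 11 genes in each class, Trem2 outside MG reached at most 1.04 times (in OL), Tyrobp at most 1.41 times (in N) and Cd68 2.94 times in N and 1.51 times in OPC.

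Mertk, the TAM receptor for engulfment of dying cells, was shared mainly between MG and AS. It ran from 661 over 980 to 1146 CPM in MG (970 ± 134) and from 315 over 448 to 732 CPM in AS (509 ± 133). The order MG over AS over MU (229 ± 55.7) over EN (82.9 ± 15.1) held in 13 of 13 libraries at each step, whereas EN and OPC (76.1 ± 19.6) differed by less than the spread between libraries. A Mertk UMI was seen in 74.1% of MG cells, 54.4% of AS cells, 28.8% of MU cells and 1.03% of OL cells. AS is the largest class, and it held 43.7% of all Mertk UMIs, close to the 44.8% in MG. In AS Mertk stood at 52.8% of its MG level, far outside the range of the 11 microglia-restricted genes.

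Axl, the other TAM receptor measured here, was nearly absent from MG. Its MG level ran from 5.98 over 12.9 to 22.2 CPM (13.5 ± 5.36), with a UMI in 2.09% of MG cells (1.66% to 2.61%), against 0.154% of OL cells. It was highest in MU, with 70.9, 189 and 373 CPM in the lowest, median and highest library (194 ± 71.8) and a UMI in 29.5% of cells. AS followed at 72.7 ± 8.23 CPM and held 56.0% of all Axl UMIs, and OPC stood at 22.1 ± 4.50. Every MG library was below every AS library, and MG and EN (9.26 ± 7.43) could not be ordered, with MG higher in 9 of 13 libraries.

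Tspo, the target of the PET tracers, was highest in EN, where the libraries ran from 176 over 303 to 457 CPM (306 ± 83.2) and 39.1% of cells had a UMI. EN held 45.6% of all Tspo UMIs and MG 31.8%. In MG Tspo ran from 65.9 over 94.1 to 113 CPM (92.5 ± 15.1), with a UMI in 14.9% of cells. MU (122 ± 34.4) was above MG in 10 of 13 libraries, by less than the spread between libraries, and AS was at 13.4 ± 5.66. Every EN library was above every MG library.

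Among the 4 late damage-associated genes, Lpl was found in several classes. Its levels were 41.1, 72.9 and 136 CPM in the lowest, median and highest MU library (88.8 ± 30.4), and 21.9, 56.9 and 113 CPM in MG (62.5 ± 31.8). MU was above MG in 10 of 13 libraries, by less than the spread, and N followed at 24.2 ± 9.70. A Lpl UMI was seen in 7.49% of MG cells (6.66% to 8.38%), 5.12% of N cells and 0.103% of OL cells. MG held 48.4% of all Lpl UMIs and N 26.9%.

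Spp1 (osteopontin) was a gene of MU in these cells, with 236, 535 and 1238 CPM in the lowest, median and highest library (629 ± 307), 16.4% of cells and 83.1% of all its UMIs. In MG it was between 0 and 6.36 CPM (median 2.48), with 21 UMIs in 14 of 3727 cells (0.376%, interval 0.206% to 0.629%). The share was 0.154% in OL and 1.30% in N. Cst7 (cystatin F) ranged from 0 over 10.5 to 40.3 CPM in MG (12.8 ± 11.02) and Itgax (CD11c) from 1.24 over 8.62 to 16.7 CPM (9.13 ± 4.76). Both were rare but all but restricted to MG, which held 95.8% of Cst7 UMIs and 97.2% of Itgax UMIs. Cst7 was seen in 1.74% of MG cells (1.35% to 2.22%) and in 0 of 6445 AS cells, which allows a share of up to 0.0465%. Itgax was seen in 1.64% of MG cells (1.25% to 2.10%) and in 0 of 3887 OL cells, which allows up to 0.0772%.

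The genes with the most similar profile over the 8 class means were found by Pearson's r of log2(CPM + 5) among 11995 genes. Class means share libraries and depth, and 8 points with 1 high class give a high r easily, so these are descriptions. Trem2 was most like Pld4 (r = 0.9997), Spi1 (which encodes PU.1) and Ccl6, and Tyrobp most like Plek (r = 0.9983), Slc2a5 and Hpgds. Cd68 was most like Alox5ap (r = 0.9981), C1qb and Aif1. Cst7 was most like Gm11648, 1810011H11Rik and C5ar2, and Itgax most like Tnfrsf17, Gm16118 and Lrrc25. The genes with a vascular or shared profile had other neighbours: Tspo was most like Trim47 (r = 0.9934), Tmem140 and Btg2, all highest in EN. Axl was most like Crtc3 (r = 0.9696), Mrps35 and Tead3, Spp1 most like 2310030G06Rik (r = 0.9936), Zic4 and Scn4b, and all 6 of these were highest in MU. Mertk was most like Pex6 (r = 0.9657), Smo and Esrra, and Lpl most like Plxdc1 (r = 0.9846), Rtn4rl1 and Npnt.

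Within MG, partner genes of the same pathways were present at different levels. For TREM2 signalling, Inpp5d, the inositol phosphatase that opposes it, stood at 416 ± 39.4 CPM, Syk at 190 CPM, Plcg2 at 121 CPM and Hcst, which encodes the adaptor DAP10, at 55.0 ± 11.5 CPM. For dying-cell uptake, the TAM ligands Gas6 and Pros1 stood at 243 ± 33.1 and 334 CPM, the engulfment gene Elmo1 at 519 ± 67.3 CPM and the integrin subunit gene Itgb5 at 889 ± 47.9 CPM. Tyro3, the TAM receptor that is not among the 10 genes, was at 1.60 CPM and Megf10 at 0.928 CPM. Of other damage-associated genes, Gpnmb (0.213 CPM), Fabp5 (7.80 CPM), Lgals3 (10.5 CPM) and Ccl3 (19.9 CPM) were low, while the cathepsin gene Ctsd stood at 4660 ± 585 CPM and Apoe at 2879 ± 1392 CPM. The TREM2 signalling list, of which Apoe is 1 gene, summed to 61689 CPM in the 107 macrophage-like MG cells described below. In subclusters 1 and 2 of MG it summed to 2934 CPM, and 1 of its 10 genes was at least 2-fold higher in the macrophage-like cells. The MG mean of Apoe therefore need not describe most MG cells. The immediate early genes Fos (9.07 CPM) and Egr1 (7.02 CPM), which rise when microglia respond to dissociation, were low too. They are 2 of a list of 12 immediate early and stress genes and do not stand for all of it. That list summed to 391 CPM in 3698 of the MG cells, where 3 of its genes reached at least 20 CPM.

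The second question was whether the genes occur together in a subset of microglia. Of the 10 genes, 4 were seen in 38.1% of MG cells and 3 in 31.9%, most cells holding UMIs of the abundant Tyrobp and Trem2. No cell had more than 8, a number reached by 4 cells. At this depth a cell without a UMI of a sparse gene cannot be called negative for it. Cells in which Lpl was seen mostly had 1 UMI (188 of 279 cells), as did those with Itgax (53 of 61 cells) and Cst7 (49 of 65 cells), so a cell is scored on single molecules.

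For each pair, the number of cells with both genes was set beside the number expected if the genes were independent within each library and each of 5 bins of UMI depth. Pairs of abundant genes met at close to the expected number. Tyrobp was seen in 92.0% and Trem2 in 91.7% of MG cells, which leaves their ratio little room above 1. Ratios of abundant pairs therefore cannot be set against those of sparse pairs. Tyrobp and Trem2 were found together in 3198 cells against 3160 expected (ratio 1.01), Mertk and Cd68 in 1749 against 1735 (ratio 1.01) and Trem2 and Cd68 in 2121 against 2090 (ratio 1.01). Pairs of the sparse microglial genes met more often than expected. Cst7 and Itgax shared 10 cells against 1.74 expected, a ratio of 5.76 (exact Poisson interval of the observed number 2.76 to 10.6), above expectation in 7 of 12 libraries. Lpl and Cst7 shared 13 cells against 5.35 (ratio 2.43, 1.29 to 4.16, above in 9 of 12 libraries). Lpl and Itgax shared 13 against 6.58 (ratio 1.98, 1.05 to 3.38, above in 8 of 13 libraries).

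**Figure D2:**
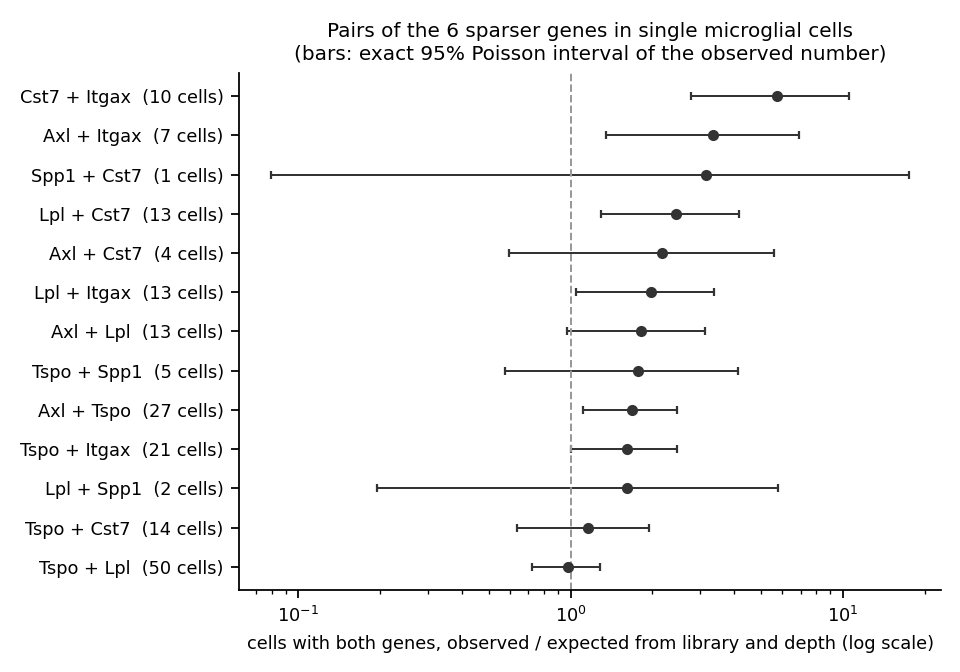
Cells that held UMIs of both genes divided by the number expected from library and depth (x axis, log scale), for 13 of the 15 pairs of the 6 sparser genes in 3727 MG cells, with exact 95% Poisson intervals of the observed number; the other 2 pairs, Axl with Spp1 and Spp1 with Itgax, met in 0 cells. Cst7 with Itgax is farthest right at 5.76, and Tspo with Lpl lies at 0.976.

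Axl joined Itgax in 7 cells against 2.09 (ratio 3.35, 1.35 to 6.90), but in 4 of 13 libraries only, and Tspo in 27 cells against 16.0 (ratio 1.69, 1.11 to 2.45), in 11 of 13 libraries. Of the 3727 MG cells, 1141 carried 2 or more markers of another class or of perivascular macrophages. Without them, and so with fewer cells to count, the intervals of both Axl pairs reached below 1 (0.979 to 9.20 for Itgax, 0.596 to 2.47 for Tspo). That of Axl and Tspo did so without subclusters 3 and 4 of MG, described below, as well (19 cells against 12.9, 0.887 to 2.30, above in 6 of 13 libraries). Tspo did not follow Lpl: 50 cells held both, against 51.3 expected (ratio 0.976). Spp1 met Lpl in 2 cells, Cst7 in 1 and Itgax or Axl in 0. With neither the depth bins nor the libraries taken into account the ratio for Cst7 and Itgax would read 9.40; the parts of library and of depth in this move were not separated. After thinning every cell to 1000 UMIs, Cst7 and Itgax still had a ratio of 11.3, while Lpl and Cst7 fell to 1.29, Lpl and Itgax to 0.708 and Axl and Itgax to 0. At 1000 UMIs few cells are left with a UMI of both. Only 7 of 3155 thinned cells held 2 or more of Lpl, Spp1, Cst7 and Itgax, so the ratio of 11.3 rests on few cells too. For the other 3 pairs an excess was not detectable at that depth.

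Counting the 4 late genes together, 3342 of 3727 MG cells (89.7%) had none of Lpl, Spp1, Cst7 and Itgax, 356 had 1, 24 had 2, 5 had 3 and 0 had all 4. The 29 cells with at least 2 made 0.778% of MG cells, against 14.9 cells expected (ratio 1.94, 1.30 to 2.79), and 5 cells with 3 genes stood against 0.254 expected. Of the 29 cells, 9 held Lpl and Itgax, 8 Lpl and Cst7, 6 Cst7 and Itgax and 4 all 3 of these, and the remaining 2 held Spp1 with Lpl, 1 of them with Cst7 too. They came from 12 of 13 libraries, 0 to 6 per library, with 19 in females (0.885% of female MG cells) and 10 in males (0.633%). Male replicate 3 had the highest share (1.81%) and male replicate 5 had none. Leaving out MG cells that carried 2 or more markers of another class left 2586 MG cells. Among these, 20 cells with at least 2 late genes remained against 9.17 expected. After thinning, 7 remained against 3.58.

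The 29 cells were compared with the other 3698 MG cells on genes that did not choose them. No library held more than 6 such cells, so UMIs were pooled and no test was made. Of 20 other damage-associated genes of at least 20 CPM, 9 were at least 2-fold higher and 1 at least 2-fold lower (median log2 ratio of CPM + 5, 0.89), beside a median of −0.09, 4.41% of genes at least 2-fold higher and 13.8% at least 2-fold lower over 7053 genes. Of 14 homeostatic genes, 0 were 2-fold higher and 1 was 2-fold lower (median −0.40). The 29 cells were deeper, with a median of 2741 UMIs against 1784.5. Among cells of at least 2000 UMIs (23 against 1569) the medians were 0.83 and −0.34.

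The cathepsin and tetraspanin genes given here were chosen after their values were seen, and 3 of the 12 libraries compared held 1 of the 29 cells each. Ctsb, which encodes cathepsin B, stood at 7132 CPM in the 29 cells (Poisson interval 6607 to 7687) against 2726 in the rest, higher in 12 of 12 libraries. Cd9, a tetraspanin of the damage-associated set, stood at 2099 against 907 CPM and Ctsz at 2182 against 950 CPM, each higher in 12 of 12 libraries. Cd63, a tetraspanin of late endosomes, stood at 1462 against 331 CPM, was higher in 11 of 12 libraries, and was seen in 79.3% against 33.7% of cells. Of the 10 genes themselves, Cd68 stood at 1117 against 615 CPM and Trem2 at 2913 against 2122 CPM, each higher in 10 of 12 libraries, while Tyrobp (3112 against 2213 CPM) was higher in 7, Mertk (1211 against 964 CPM) in 6 and Axl (6 UMIs, 62.6 against 12.5 CPM) in 3. P2ry12, the purinergic receptor of resting microglia, stood at 2026 against 3888 CPM and was higher in 1 of 12 libraries. Selplg stood at 1598 against 3013 CPM, higher in 3 of 12.

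**Figure D3:**
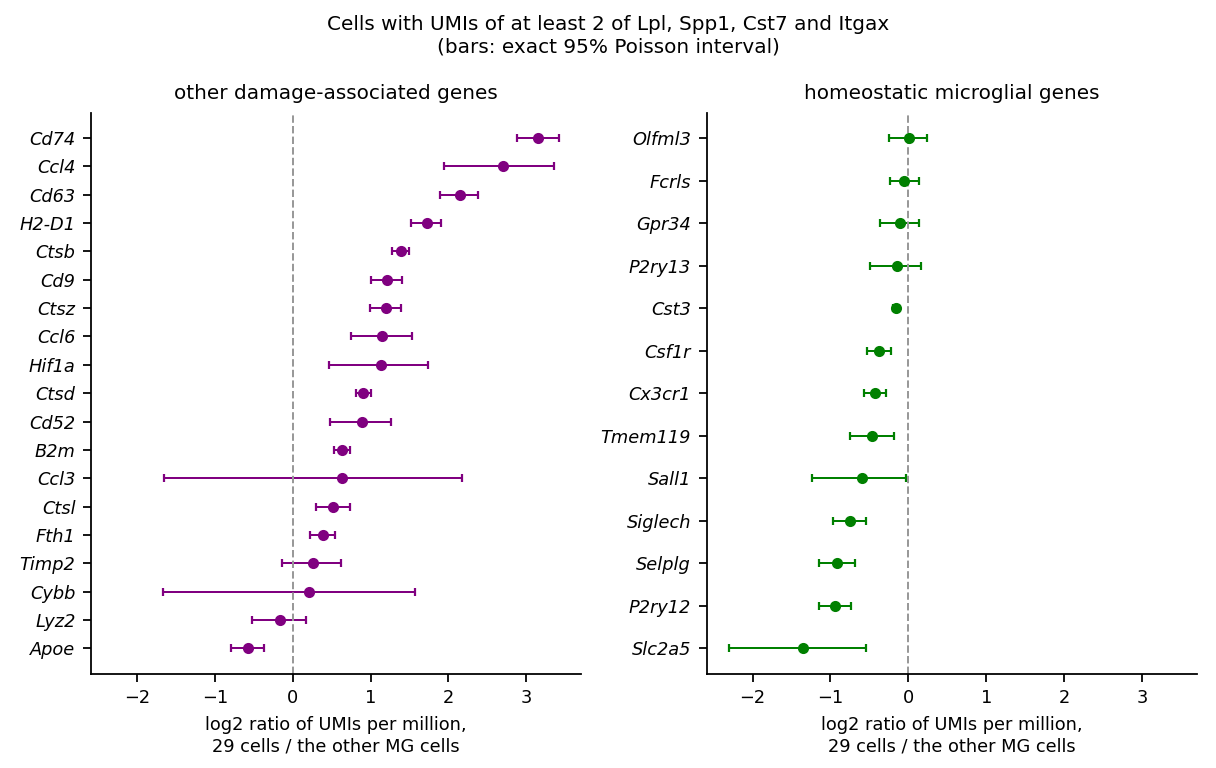
Log2 ratio of pooled per-million UMIs between the 29 MG cells with at least 2 of Lpl, Spp1, Cst7 and Itgax and the other MG cells, for 19 other damage-associated genes with a UMI in the 29 cells (left) and 13 of the 14 homeostatic genes (right), with exact 95% Poisson intervals. Most damage-associated genes lie right of 0 and most homeostatic genes left of it; 1 cell gave 70.7% of the Cd74 UMIs.

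Some of these ratios rest on single cells. One cell gave 70.7% of the Cd74 UMIs and Cd74, an antigen presentation gene, fell from 1211 to 394 CPM without it, against 136 in the rest, and was higher in 4 of 12 libraries. The top cell held 42.9% of the H2-D1 UMIs (2339 CPM with it and 1481 without, against 710) and 22.8% of those of Ctsb (6099 CPM without it). Apoe, the lipid carrier that TREM2 binds, stood at 1973 against 2936 CPM and was higher in 2 of 12 libraries. The top cell gave 52.9% of its UMIs, and the level was 1030 CPM without that cell. The TREM2 signalling list, of which Apoe is 1 gene, summed to 3728 CPM in the 29 cells and 5076 in the rest. Leaving out cells with 2 or more perivascular macrophage markers, the rest summed to 2914 CPM, below the 2936 CPM of Apoe alone with them. How the 29 cells compare in Apoe with microglia alone is therefore not given here. Perivascular macrophage markers were low in the 29 cells, at a summed 20.9 CPM against 774 CPM in the rest, and the lymphocyte markers stood at 104 against 55.2 CPM. After leaving out cells with 2 or more markers of another class, the median log2 ratio of the damage-associated list was 0.64 (18 genes) and that of the homeostatic list −0.25.

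MG cells were then clustered without the 10 genes, to see whether they gather in a subset that the other genes define. At a Leiden resolution of 0.5 there were 4 subclusters. Subclusters 1 (1813 cells, median 1231 UMIs) and 2 (1758 cells, median 2625 UMIs) differed in depth, subcluster 3 (107 cells, led by Pf4, Mrc1, F13a1 and Cbr2) was perivascular macrophage-like and subcluster 4 (49 cells, led by Ms4a4b, Ly6c2, Ccl5 and Nkg7, with Cd3g) was lymphocyte-like. In subcluster 4 the lymphocyte markers summed to 3902 CPM, beside 6730 CPM of endothelial, 2128 CPM of monocyte and neutrophil and 1110 CPM of mural markers. The endothelial list holds Ly6c1 and the monocyte and neutrophil list Ly6c2, both among the leading genes of this subcluster. Which cells these sums came from was not tested. Both small subclusters came from all 13 libraries. The 29 cells with 2 or more late genes fell 7 in subcluster 1, 21 in subcluster 2, 0 in subcluster 3 and 1 in subcluster 4. At resolution 1 there were 12 subclusters, and 15 of the 29 cells lay in 1 of them (626 cells, median 3115.5 UMIs).

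**Figure D4:**
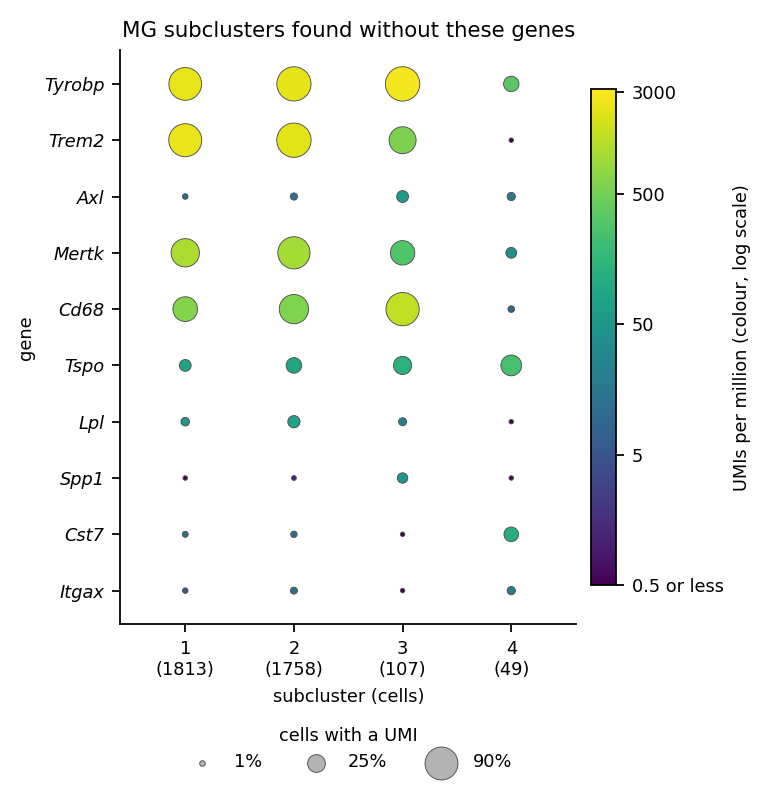
Level (colour, per-million UMIs, log scale) and share of cells with a UMI (dot area) of the 10 genes in 4 MG subclusters found without them, with the number of cells below each. Cd68 is highest in subcluster 3, Cst7 and Tspo in subcluster 4, and Trem2 is at 0 in subcluster 4.

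The 107 macrophage-like cells differed from the rest mainly in Trem2 (559 CPM against 2344 and 2165 in subclusters 1 and 2), Mertk (289 against 1083 and 969), Cd68 (1372 against 628 and 589) and Axl (57.0 against 9.08 and 12.5). They also held 14 of the 21 Spp1 UMIs of MG. In subclusters 1 and 2 together Spp1 was seen in 6 of 3571 cells (0.168%, 0.0617% to 0.365%), at 7 UMIs and 0.956 CPM, beside 0.154% of the deeper OL cells, with 7 UMIs and 0.465 CPM pooled. Tyrobp was as high in macrophage-like cells (2715 CPM) as in microglia, and low in the lymphocyte-like cells (318 CPM), in which Trem2 and Lpl had 0 UMIs. The 49 lymphocyte-like cells held 13 of the 91 Cst7 UMIs of MG, at 118 CPM against 12.0 and 10.0 in subclusters 1 and 2. Cst7 is known from cytotoxic lymphocytes as well. Tspo, which was highest in EN among the classes, stood at 236 CPM in subcluster 4. Whether this level went with the UMIs of the endothelial list there was not tested. Leaving both subclusters out, Cst7 and Itgax shared 9 cells against 1.65 expected (ratio 5.44), and 28 cells had at least 2 late genes against 13.8 expected.

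The third comparison was between male and female libraries within MG, with MG counts summed per library (edgeR quasi-likelihood test, male minus female, Benjamini-Hochberg over 7458 genes). Lpl and Mertk were the 2 members that passed, in opposite directions, of 6 that were tested, beside 0.349% of all tested genes called in either direction (26 genes, against 540 at an unadjusted p under 0.05). Axl, Spp1, Cst7 and Itgax had too few UMIs to be tested. Values below are CPM scaled by TMM factors.

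**Figure D5:**
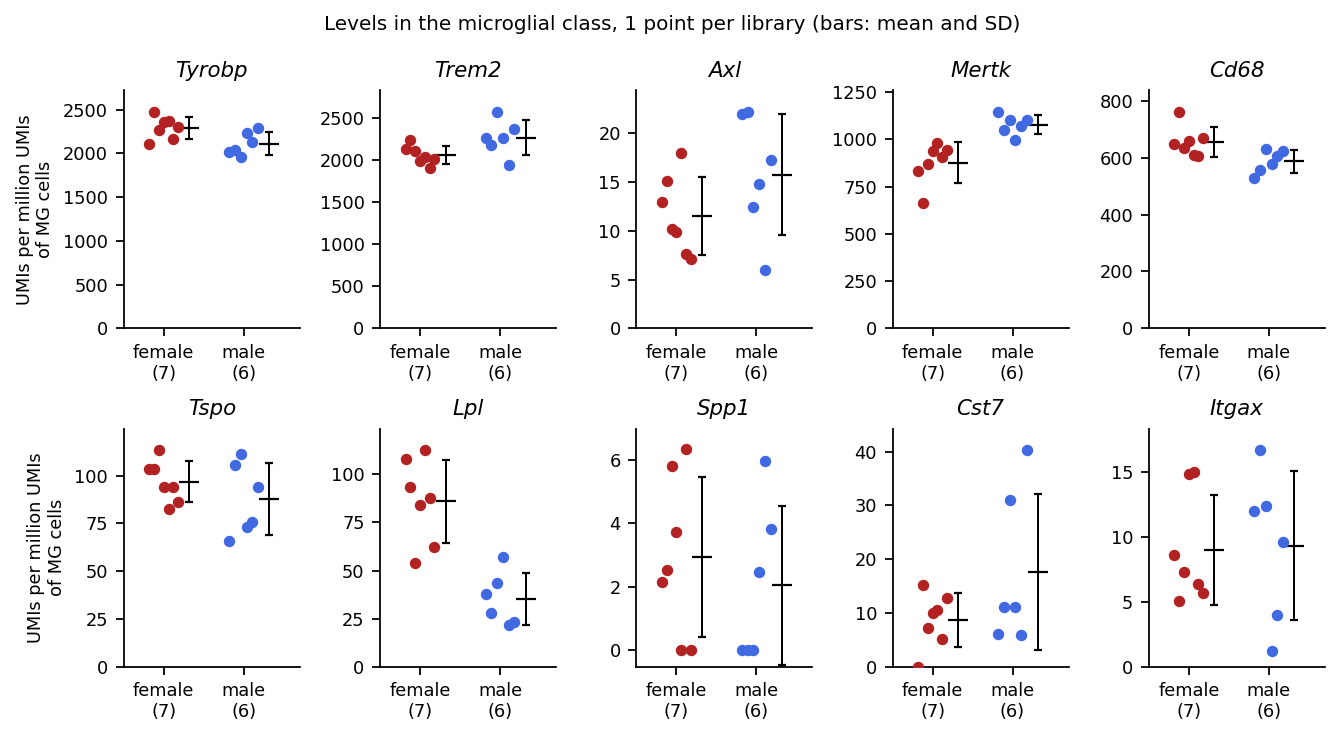
Level of each of the 10 genes in MG cells (y axis, per-million UMIs of MG, not scaled by TMM) in the 7 female and 6 male libraries, 1 point per library, with bars for mean and SD. Lpl is higher in 6 of 7 female libraries than in any male library, and all male libraries lie above all female libraries for Mertk.

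Lpl, the lipase, stood at 55.4, 90.4 and 118 CPM in the lowest, median and highest female library and at 23.0, 33.9 and 59.2 in the male libraries (means 89.6 ± 23.3, n = 7, and 36.5 ± 14.03, n = 6). The groups overlapped by 1 female library, the other 6 lying above the highest male. The log2 difference was −1.23 ± 0.20 (SE, adjusted p = 1.9e-04), and 0.067% of tested genes were called higher in females. The share of MG cells with a Lpl UMI was 9.62% ± 1.81 in females and 4.66% ± 1.64 in males (SD), and after thinning 5.76% ± 0.756 and 2.94% ± 1.43. After thinning the lowest female library (5.08%) was above the highest male library (4.30%). Cells that showed Lpl held 1.90 ± 0.447 UMIs of it in females and 1.55 ± 0.315 in males, which differed by less than the spread between libraries. Cells with 3 or more Lpl UMIs numbered 29 in females (1.35% of MG cells, in 7 of 7 libraries) and 4 in males (0.253%, in 3 of 6 libraries). The call was lost when all deposited cells were used (−1.15, adjusted p = 0.0639), and it was −1.27 (adjusted p = 2.6e-05) without subclusters 3 and 4.

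Markers of other cell types in MG were set beside these differences. The 5 endothelial markers, none of them at 0 in either sex, summed to 66.1 to 412 CPM in female and 38.4 to 210 CPM in male MG libraries, and 4 of them were tested with a median log2 difference of −1.25 and none called. The 5 mural markers summed to 19.4 to 161 and 14.8 to 49.9 CPM, with 1 tested and none called. Perivascular macrophage markers summed to 47.4 to 1429 and 298 to 1066 CPM (7 of 8 tested, none called, median −0.29), and the 7 neuronal markers to 129 to 245 and 209 to 370 CPM (3 tested, Meg3 called higher in males). Lpl had 4.71 CPM in EN and 21.4 CPM in the macrophage-like cells, below its MG level, and 88.8 CPM in MU, near it. The part of these cells' RNA in the sex differences of MG was not tested, beyond the fit without subclusters 3 and 4.

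Mertk stood at 690, 933 and 1030 CPM in the lowest, median and highest female library and at 1037, 1130 and 1173 in the male libraries (means 912 ± 111 and 1120 ± 48.7). The groups did not overlap, though the highest female and the lowest male library were close, and female replicate 2 was the lowest library. The log2 difference was 0.29 ± 0.07 (adjusted p = 0.0248), beside 0.282% of tested genes called higher in males. The call was lost without any of male replicates 1 and 6 and female replicates 2, 3 and 6 (adjusted p 0.0556 to 0.0942), with all deposited cells (0.27, adjusted p = 0.0569) and with 9-week libraries only (adjusted p = 0.128). The share of MG cells with a Mertk UMI was 71.7% ± 5.77 in females and 77.6% ± 2.55 in males.

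Tyrobp stood at 2388 ± 137 CPM in females and 2194 ± 149 in males (log2 −0.12, adjusted p = 0.665), and Trem2 at 2151 ± 119 and 2357 ± 209 (0.13, adjusted p = 0.602). Cd68 stood at 682 ± 55.5 and 610 ± 45.2 (−0.16, adjusted p = 0.590), with 5 of 7 female libraries above the highest male library. Tspo stood at 101 ± 10.96 and 91.0 ± 19.5 (−0.16, adjusted p = 0.887). Trem2 and its adaptor thus leaned opposite ways, and neither passed. Of the members that were not tested, unscaled levels were 11.6 ± 4.01 CPM in females and 15.8 ± 6.17 in males for Axl, 8.66 ± 5.05 and 17.6 ± 14.5 for Cst7, 8.97 ± 4.23 and 9.31 ± 5.73 for Itgax and 2.94 ± 2.54 and 2.05 ± 2.51 for Spp1. Male replicates 6 (40.3 CPM) and 3 (31.0 CPM) had the highest Cst7 levels.

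Few genes of the related pathways moved with sex. Of 20 damage-associated genes tested, 1, Ctsl, which encodes cathepsin L, was higher in females (1399 ± 101 against 1166 ± 107 CPM, −0.26 ± 0.06, adjusted p = 0.0403) and none was higher in males. None of 10 TREM2 signalling genes, 13 genes of TAM ligands and uptake, 9 of lipid handling, 5 osteopontin receptor genes, 5 TSPO partners or 14 homeostatic genes passed. The list medians lay between −0.09 and 0.09, beside 0.00 over all genes tested. Among other called genes, the clock-related genes Dbp (2.31 ± 0.42, adjusted p = 0.0460), Per3 (1.67 ± 0.26), Tef (1.27 ± 0.16) and Nr1d2 (0.98 ± 0.17) were higher in males. Dbp stood at 85.8 to 141 CPM in 5 male libraries and at 23.0 in male replicate 5, against 5.99 to 41.0 in the female libraries. Male replicate 5 lay within the female range for Per3 (20.9 CPM), Tef (58.5 CPM) and Nr1d2 (48.1 CPM) too. Also higher in males were Fat3 (1.49 ± 0.21), Mras (1.03 ± 0.17), Tgm2 (0.88 ± 0.16), the inflammasome sensor Nlrp3 (0.60 ± 0.13) and the LPS co-receptor Cd14 (0.36 ± 0.09). Crlf2 was higher in females (−0.74 ± 0.17).

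In the other 7 classes, 3 pairs of member and class passed in fits over all genes of each class. The share of all tested genes called in either direction was 1.16% in AS, 0.131% in OPC and 1.28% in EN. It was 0.261% in OL, 0.0889% in OPC-OL, 0.123% in MU and 0.0623% in N. In OL and OPC-OL no member had enough UMIs to be tested. Those tested were Axl, Mertk and Tspo in AS, Axl and Mertk in OPC, and Mertk and Tspo in EN. None of those tested in MU (Axl, Mertk, Tspo, Lpl and Spp1) and N (Tyrobp, Mertk and Lpl) passed. Mertk in AS stood at 327, 440 and 489 CPM in the lowest, median and highest female library and at 422, 657 and 740 in the male libraries (431 ± 50.9 and 615 ± 126), with 5 of 6 males above the highest female (log2 0.50 ± 0.11, adjusted p = 0.0307, beside 0.511% of genes called higher in males). Mertk in OPC stood at 42.5, 65.1 and 82.1 in females and 76.2, 90.3 and 111 in males, with 4 of 6 males above the highest female (0.53 ± 0.12, adjusted p = 0.0393, beside 0.0845%). Mertk was therefore higher in males in MG, AS and OPC. Tspo in EN stood at 234, 411 and 495 CPM in females and 191, 284 and 347 in males, with 6 of 7 females above the highest male (−0.54 ± 0.14, adjusted p = 0.0265, beside 0.232% of genes called higher in females). Each of the 3 calls was lost when some single libraries were left out. For Mertk in AS these were male replicates 1, 2, 3 and 6 and female replicates 1, 3, 4 and 7 (adjusted p 0.0511 to 0.0916). For Mertk in OPC they were male replicates 1, 2 and 6 and female replicates 1, 2, 3 and 7 (0.0817 to 0.330). For Tspo in EN they were male replicates 1, 3 and 6 and female replicates 2, 4, 5, 6 and 7 (0.0524 to 0.182). With all deposited cells the calls of Mertk in AS (adjusted p = 0.123) and Tspo in EN (0.0669) were lost, and with DESeq2 that of Mertk in OPC (0.0821). The classes share libraries, so they do not replicate each other. Tests of the difference in the sex effect between MG and each other class called no member, beside 0.115% of genes called against AS, 0.109% against OPC, 0.0894% against EN, 0.0295% against MU, 0.0552% against N and 0% against OL and OPC-OL. The term was −1.31 ± 0.35 for Lpl against MU (adjusted p = 0.274), −1.04 ± 0.29 for Lpl against N (adjusted p = 0.278) and −0.19 ± 0.10 for Mertk against AS (adjusted p = 0.734).

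Over all cells of a library, the members' levels were set beside the share of microglia. MG gave 12.7% ± 1.72 of kept UMIs in females and 9.60% ± 1.08 in males, and in such sums fewer cells of a type and less RNA per cell cannot be told apart. Tyrobp ran from 244 over 303 to 370 CPM in females and from 168 over 216 to 243 in males, without overlap (−0.52 ± 0.10, adjusted p = 0.0343). Cd68 ran from 75.3 over 85.4 to 106 and from 44.0 over 63.0 to 65.8, without overlap (−0.54 ± 0.09, adjusted p = 0.0187). Tspo ran from 27.2 over 42.7 to 50.9 and from 20.045 over 21.2 to 31.5, with 6 of 7 females above the highest male (−0.81 ± 0.13, adjusted p = 0.0149). EN held 45.6% of all Tspo UMIs and MG 31.8%, so the MG share alone does not describe Tspo. Kept EN cells numbered 852 in the 7 female and 611 in the 6 male libraries, and their part in this difference was not tested. Without single libraries the calls were lost for Tyrobp (without any of female replicates 3 to 7 or male replicates 1, 2, 3 and 5, adjusted p 0.0511 to 0.0812), for Cd68 (without female replicate 3 or 6, 0.0529 and 0.0556) and for Tspo (without female replicate 6, 0.0501), and with 9-week libraries only for all 3 (0.200, 0.117 and 0.117). These 3 of the 8 members tested passed, beside 0.468% of 14314 genes called higher in females and 0.594% called in either direction. Tyrobp and Cd68 did not pass within MG, and Lpl, which did, missed the threshold over all cells (−0.80 ± 0.21, adjusted p = 0.0864; 0.0322 without male replicate 4).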

How the data were processed

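The deposited table holds raw UMI counts per gene and cell, made by the authors with STAR 2.5.0a on mm10 after bcl2fastq 2.17.1.14, per the submitters' processing notes; the collapsing of UMIs and choice of cells are not given in the sources used here. Each cell's library and class were read from its deposited name, and libraries were matched to the labels by sex and replicate number. Cells with at least 500 genes were kept, and 281 doublets (1.13% of 24808) were removed with Scrublet, run per library in scanpy 1.11.5. The 10 genes and the gene lists were chosen with earlier results of these data known. Levels are CPM, the per-million share of UMIs of a class in a library. Sex was tested on counts summed per library with edgeR 4.0.16 (TMM, filterByExpr, robust quasi-likelihood, Benjamini-Hochberg over all genes, threshold 0.05), and the script was tested on simulated data. Kept libraries held 3718151 to 7874074 UMIs. Shares carry exact binomial and pooled UMIs exact Poisson 95% intervals, for counting error only, and a count of 0 allows up to 3 counts. MG cells were clustered on 2000 variable genes without the members (20 components, 15 neighbours, leidenalg 0.10.2). The names shown in the text are the members, up to 10 called genes per direction of at least 20 CPM, called list genes and the 3 genes most like each member. Some genes of the lists are also named for their level in MG as a whole. The genes shown for the cells with 2 late genes, and the threshold of 3 Lpl UMIs, were chosen after their values were seen. The alternatives were DESeq2 1.42.0, other normalization and filters, all deposited cells, thinning to 1000 or 1500 UMIs, 9-week libraries and leaving out each library. Several more were chosen after seeing the data: leaving out subclusters 3 and 4, leaving out cells with markers of other classes, taking only deeper cells, and the class-by-sex terms. A planned test of cells with 2 late genes needed 10 such cells in each of 3 libraries and could not be fitted. Clec7a is not analysed here, and 2 genes are not reported here.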

Additional observations from a re-analysis of the deposited data

Results flagged for a closer look

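Of 26 groups of libraries examined (either sex, for the 10 members in MG, Mertk in AS and in OPC, and Tspo in EN), 1 held a library that stood apart from the rest. Cd68 stood at 762 CPM in female replicate 2, with the next female library at 668 CPM and the lowest at 608 CPM. Chance alone sets about 1 in 20 groups apart in this way. The same library had the lowest Mertk level of all libraries in MG, at 661 CPM with the next female library at 832 CPM, and the Mertk sex difference without it was 0.24 on the log2 scale (adjusted p = 0.0942).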

How the results depend on the processing

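Lpl in MG kept its direction under 22 alternatives (log2 −1.50 to −1.13, adjusted p 8.5e-10 to 0.0639) and Mertk kept its direction too (0.24 to 0.32, adjusted p 0.0063 to 0.128); no value reversed. The 26 genes called by sex in MG became 41 without the filter on low counts and 18 to 47 with 1 library left out (47 without male replicate 5). The 85 genes called over all cells became 350 with DESeq2, 14 with the replicate block, 25 with 9-week libraries and 10 (without female replicate 6) to 234 (without female replicate 2) with 1 library left out. The 3 member and class pairs became 1 with all deposited cells, 0 with the replicate block and 0 to 3 with 1 library left out (0 without male replicate 1, male replicate 6 or female replicate 7). The 29 cells with at least 2 late genes became 45 with Axl counted and 7 after thinning, and the 4 subclusters became 12 at the higher resolution. The cause was not tested, apart from the fewer UMIs that thinning leaves. The labels do not state that replicate numbers pair the libraries. Deviations of same-numbered libraries correlated at −0.01 to 0.13 over 7170 genes, and 2 of 6 male libraries correlated best with their own number. These values cannot decide whether the numbers pair the libraries. The fits with the replicate block left out female replicate 7, which has no male library of its number. With the replicate block 32 genes were called in MG, among them Lpl (−1.34, adjusted p = 2.4e-06) and Mertk (0.31, adjusted p = 0.0063), while over all cells Tyrobp and Cd68 did not pass (both 0.0798), nor did Mertk in AS (0.226) and OPC (0.118) or Tspo in EN (0.0630). Over all cells Lpl passed with DESeq2 (adjusted p = 0.0160). The planned fit for the cells with 2 late genes and its alternatives were not run, since no library held 10 such cells. With all deposited cells, 23 of 23 class levels moved by less than 1 SD. At 1500 UMIs the thinned shares of 5 of the 10 members moved by more than 1 SD over libraries. Depth limits the sparse genes: with 1 UMI in most positive cells, such as 188 of 279 for Lpl and 445 of 556 for Tspo, absence from a cell is not absence of expression.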

Other observations

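Spp1 in MU lay in cells with fibroblast-type genes. It was seen in 125 of 764 MU cells, with 8.18 UMIs per positive cell, and 69 cells with 5 or more UMIs held 89.1% of its UMIs. Those 125 cells carried Dcn at 9077 CPM against 196 in the other MU cells, Lum at 1888 against 22.9 and Col1a1 at 830 against 41.0, genes of the fibroblast matrix. Acta2, a gene of contractile smooth muscle, stood at 4.21 against 9848 CPM and the pericyte gene Rgs5 at 3194 against 7505. Of the 125 cells, 89 held at least 2 of Dcn, Col1a1, Col1a2 and Lum, as did 124 of all 764 MU cells, and cells with at least 2 held 89.4% of the Spp1 UMIs of MU. The same Spp1 cells were low in Mertk (67.4 against 258 CPM), while Lpl stood at 135 against 77.1 CPM and Axl at 185 against 194 CPM. These genes were chosen after values were seen and the cells were chosen on Spp1, so the values are a description.

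The 33 MG cells with 3 or more Lpl UMIs, up to 27 in 1 cell, held 38.8% of the Lpl UMIs of MG. Against cells without Lpl, the chemokine genes Ccl4 and Ccl3 stood at 606 against 21.5 CPM and 266 against 12.9 CPM, with Ccl4 seen in 21.2% against 1.48% of cells and higher in 6 of 10 libraries. Cd9 stood at 1817 against 884 CPM, higher in 9 of 10 libraries, and P2ry12 at 2661 against 3919 CPM, higher in 1 of 10. Trem2 (2074 against 2120 CPM), Tyrobp (2212 against 2214 CPM) and Cd68 (606 against 616 CPM) were about level. The median log2 ratio was 0.17 for the damage-associated list and −0.42 for the homeostatic list, beside −0.02 over all genes. Of the 19 damage-associated genes compared, 2 were at least 2-fold higher and 3 at least 2-fold lower, so the list as a whole was not raised. The share of single cells in the Ccl4 and Ccl3 UMIs is not given here. Of the 33 cells 29 were female and up to 8 came from 1 library, and no test was made.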
